A study of Mus musculus with 12 samples.

Results

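The transcript response of Aag knock-out mouse liver to methyl methanesulfonate (MMS) was described from 6 arrays, 3 of MMS-treated and 3 of control knock-out animals, among the 12 arrays of the series. All 22626 probe sets other than the manufacturer's controls were tested. All animals were C57Bl/6J mice of 6 to 8 weeks, and both knock-out groups lack Aag. Treated animals received 1 intraperitoneal injection of MMS at 75 mg/kg, and the livers were taken 6 hours later. The control animals carry no treatment in the labels, and the sources used here do not say whether they were injected. The other 6 arrays are the matching wild-type groups, 3 control and 3 treated. They were used for the spread of the fit and for the comparison between genotypes. RNA came from whole liver, so fewer cells of a type and less RNA per cell cannot be told apart.

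MMS adds methyl groups to DNA bases, mostly to guanine and adenine. Aag, whose gene symbol is Mpg, is the glycosylase that recognises methylated purines and cuts them from the sugar backbone, the first step of base excision repair. Without it these bases leave DNA by other routes or stay in place. Liver cells exposed to alkylating and other chemical stress are known for several gene programmes: metallothioneins that bind zinc, chaperones of the endoplasmic reticulum, antioxidant enzymes under the transcription factor NRF2, and targets of the tumour suppressor p53.

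At 1 of its 2 probe sets, Mpg read 5.44, 5.60 and 4.95 in control and 5.75, 5.34 and 5.32 in treated knock-out arrays 1, 2 and 3 (log2). The 6 wild-type arrays read 6.21 to 6.94, so no knock-out array reached a wild-type one. The other probe set overlapped between genotypes, at 7.36 to 8.18 in knock-out and 7.84 to 8.50 in wild-type arrays. The position of either probe set in relation to the deletion is unknown here. Markers of hepatocytes averaged 13.9 to 14.0 in the knock-out arrays, and the list's median lay within 0.02 of the control mean in every one of them.

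The knock-out arrays were not alike within their groups. The control probe sets for Actb and Gapdh at the 5' end of the transcript, minus those at the 3' end, a measure of how intact and fully copied the RNA was, gave -2.54, -2.66 and -2.33 in the controls. In the treated arrays this difference was -1.61, -1.51 and -2.46, so treated arrays 1 and 2 lay above every other array and treated array 3 lay among the controls. A clock score, the mean of 9 evening-peaking minus 5 dawn-peaking clock genes, was -1.08, -1.42 and 2.09 in the controls and 1.83, 1.02 and 1.66 in the treated arrays. Control array 3 thus scored above all treated arrays and the other 2 controls below them. It was closest to treated array 3 across probe sets (r = 0.987), and treated array 3 was closest to wild-type control array 2 (r = 0.989). Pancreatic acinar transcripts were high in 1 array: the median of that list stood 2.40 above the control mean in treated array 1, against -0.14 and 0.06 in treated arrays 2 and 3.

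After MMS, 341 of 22626 probe sets passed the threshold in knock-out liver (1.51%), 169 higher (0.747%) and 172 lower (0.76%). Counting 1 probe set per gene, 211 of 12393 genes passed (1.7%), 110 higher (0.888%) and 101 lower (0.815%). These shares of genes are the background for each count of called list members below. The adjusted p of the calls ran from 0.0120 to 0.0499 (limma, Benjamini-Hochberg), so all lay close to the threshold of 0.05. The unadjusted p was under 0.05 for 5610 probe sets (24.8%), and for genes in 13.3% with higher and 12.7% with lower values, the background for each count at that p below. A change of at least 2-fold was seen in 121 of the calls (0.535% of probe sets).

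The number of calls rested on single arrays. It was 0 without treated array 1, 0 without treated array 2 and 3264 without treated array 3, and 0, 1 and 812 without control arrays 1, 2 and 3. At an unadjusted p under 0.05, 3391, 4242 and 4358 probe sets were left in the fits without treated array 1, treated array 2 and control array 1. Since all 12 arrays share the estimate of the spread, the count was also 30, 13 and 35 without wild-type control arrays 1, 2 and 3, and leaving out treated wild-type arrays 1, 2 and 3 gave 676, 611 and 69. Fitted to the 6 knock-out arrays alone, 0 probe sets passed (4635 at an unadjusted p under 0.05). With the 5' minus 3' difference as a covariate 0 passed as well (2243), and without both treated arrays 1 and 2 again 0 (1858). All counts of called genes and list members below carry these limits, and the values of each array are given so that the arrays can be set beside each other.

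The median of the 110 genes called higher lay 1.04, 0.97 and 0.65 above the control mean in treated arrays 1, 2 and 3. The 101 genes called lower lay 0.99, 0.95 and 0.67 below it. Treated array 3, whose 5' minus 3' difference lay within the range of the controls, had both medians on the same side at a smaller size. The genes were called on these same arrays, array 3 included, so the side of its medians is no separate result. How much of the larger shift in the other two arrays goes with their 5' to 3' signal was not tested beyond the fit with the covariate.

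**Figure D1:**
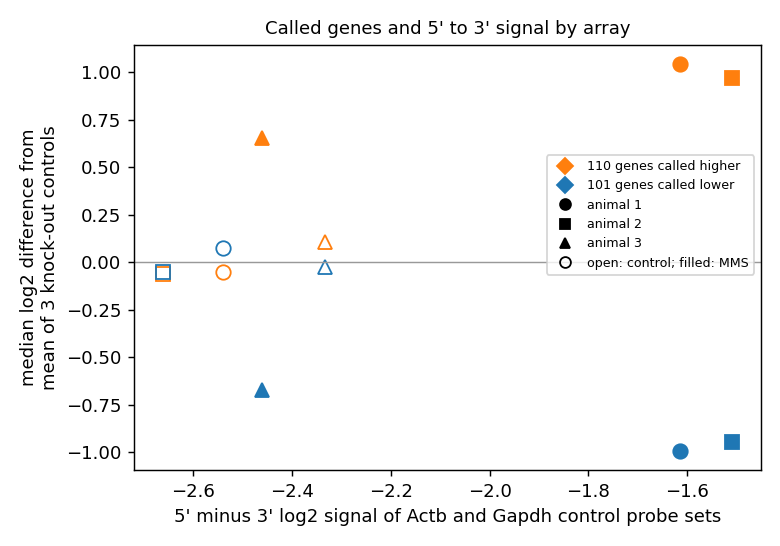
Median log2 difference from the mean of the 3 knock-out controls (vertical) against the 5' minus 3' log2 signal of the Actb and Gapdh control probe sets (horizontal) for the 6 knock-out arrays; open symbols are controls, filled symbols MMS, and symbol shape gives the animal number. The called genes were chosen on these arrays, so the plot describes them; treated arrays 1 and 2 sit at the right (-1.61 and -1.51) and treated array 3 (-2.46) among the controls, with medians of 0.65 and -0.67.

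The largest change among the called genes was that of Mt2. Mt2, a metallothionein that holds zinc and copper, read 9.66, 8.42 and 11.003 in control and 12.45, 13.63 and 11.92 in treated arrays (log2). The groups did not overlap, but control array 3 lay within 1 log2 unit of treated array 3. The rise was 2.97 ± 0.62 (standard error of the fit, here and below, 3 arrays a group), or 7.86-fold, with a limma adjusted p of 0.0472. Mt1, its neighbour and close relative, read 12.39, 11.16 and 13.29 against 13.90, 13.98 and 13.83. Its difference of 1.62 ± 0.42 did not pass (adjusted p = 0.0676), and treated arrays were again all above the controls.

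Of the zinc transporters 3 passed. Slc30a1, which exports zinc from the cell, rose by 0.66 ± 0.13, from 8.16 to 8.42 in controls to 8.78 to 9.06 in treated arrays. Slc30a5, which loads zinc into the early secretory pathway, rose by 0.96 ± 0.17, and Slc39a7, which releases zinc from the endoplasmic reticulum, by 1.03 ± 0.20. In all, 4 of 12 measured genes of metallothioneins and zinc transport rose, 8 were not called and none fell. Of the 12 values 8 were positive and 4 negative, the lowest at -0.43, and at an unadjusted p under 0.05 there were 6 higher and 1 lower. The list's median change was 0.31, against -0.06 over all genes. Across genes, change and mean level had a rank correlation of 0.25. The median over all genes is thus not matched to the level of this or any other list.

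Promoters of 3 risen genes are shown because they hold the short elements tied to their known regulators: the core of the metal response element, bound by the zinc sensor MTF1, in Mt2 and Slc30a1, and the composite element for C/EBP and ATF factors in Nupr1. Each run covers the 250 bases before the transcription start, 5′ to 3′ on the gene's strand, from RefSeq (GRCm38.p6). Capitals mark matches to TGCACNC or TGCGCNC in the first 2, and to TGATGNAA in Nupr1, on either strand. Mt2 lies on the plus strand (chr8:94172368-94172617), Slc30a1 on the plus strand (chr1:191906531-191906780) and Nupr1 on the minus strand (chr7:126625471-126625720).
Mt2: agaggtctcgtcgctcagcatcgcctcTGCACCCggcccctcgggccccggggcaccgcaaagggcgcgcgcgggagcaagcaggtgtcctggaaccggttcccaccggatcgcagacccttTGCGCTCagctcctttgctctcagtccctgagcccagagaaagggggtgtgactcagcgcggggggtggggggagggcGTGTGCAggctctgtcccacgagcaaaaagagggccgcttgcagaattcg
Slc30a1: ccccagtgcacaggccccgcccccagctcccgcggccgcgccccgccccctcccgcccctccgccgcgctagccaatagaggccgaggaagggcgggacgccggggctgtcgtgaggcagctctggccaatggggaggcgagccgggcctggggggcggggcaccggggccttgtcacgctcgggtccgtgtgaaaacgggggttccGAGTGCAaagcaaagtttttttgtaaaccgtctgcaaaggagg
Nupr1: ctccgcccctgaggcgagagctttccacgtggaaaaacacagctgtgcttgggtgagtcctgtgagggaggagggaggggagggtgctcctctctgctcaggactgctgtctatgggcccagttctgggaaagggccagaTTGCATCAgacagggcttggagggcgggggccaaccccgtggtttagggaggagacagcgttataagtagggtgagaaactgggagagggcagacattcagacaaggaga
Mt2 holds 3 metal response cores, which begin at -223, -128 and -50 relative to the start. The single core of Slc30a1 begins at -43, and the element of Nupr1 at -110. In 32851 promoters of the same length, TGCACNC occurred in 10.4%, TGCGCNC in 12.5% and TGATGNAA in 3.45%. A match is a description of the letters and not of binding. For risen and fallen genes, a gene was counted if any of its starts held the element, while the share of all promoters counts each start by itself. A gene with several starts has more chances of a match, so the gene shares are not comparable with the share of all promoters. Among the 94 risen genes with a promoter in the table, 19.1% held the antioxidant element TGACNNNGC. It was held by 7.14% of 84 fallen genes and 10.2% of all promoters. The metal response core TGCACNC was found in 10.6% of risen and 15.5% of fallen genes, and TGCGCNC in 23.4% and 22.6%. The element TGATGNAA was found in 3.19% of risen and 1.19% of fallen genes, and the E-box CACGTG in 11.7% and 7.14%, with 6.02% of all promoters. The endoplasmic reticulum stress element, CCAAT and CCACG spaced 9 bases apart, occurred in 1 risen gene (1.06%), 0 fallen genes and 0.113% of all promoters.

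Nupr1, a small chromatin protein induced by many stresses and a target of ATF4, read 7.32, 7.15 and 7.13 in control and 9.62, 9.51 and 8.41 in treated arrays. The control values lay within 0.2 of each other and every treated array was above them by more than 1 log2 unit. The rise was 1.98 ± 0.29 (3.95-fold, limma adjusted p = 0.0264), and its other probe set gave 1.71 ± 0.29. Among 29 targets of ATF4, the transcription factor of the integrated stress response, only Nupr1 and Sqstm1, an autophagy receptor (0.70 ± 0.14), rose. The other 27 were not called, and the list's median change was -0.06, as over all genes. At an unadjusted p under 0.05 the list had 7 higher and 2 lower members. Ddit4, an inhibitor of growth signalling, stood at 1.08 ± 0.31 (adjusted p = 0.0793), and Atf4 itself at 0.78 (adjusted p = 0.0617). Of the 2 other probe sets of Atf4, 1 had the same sign.

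**Figure D2:**
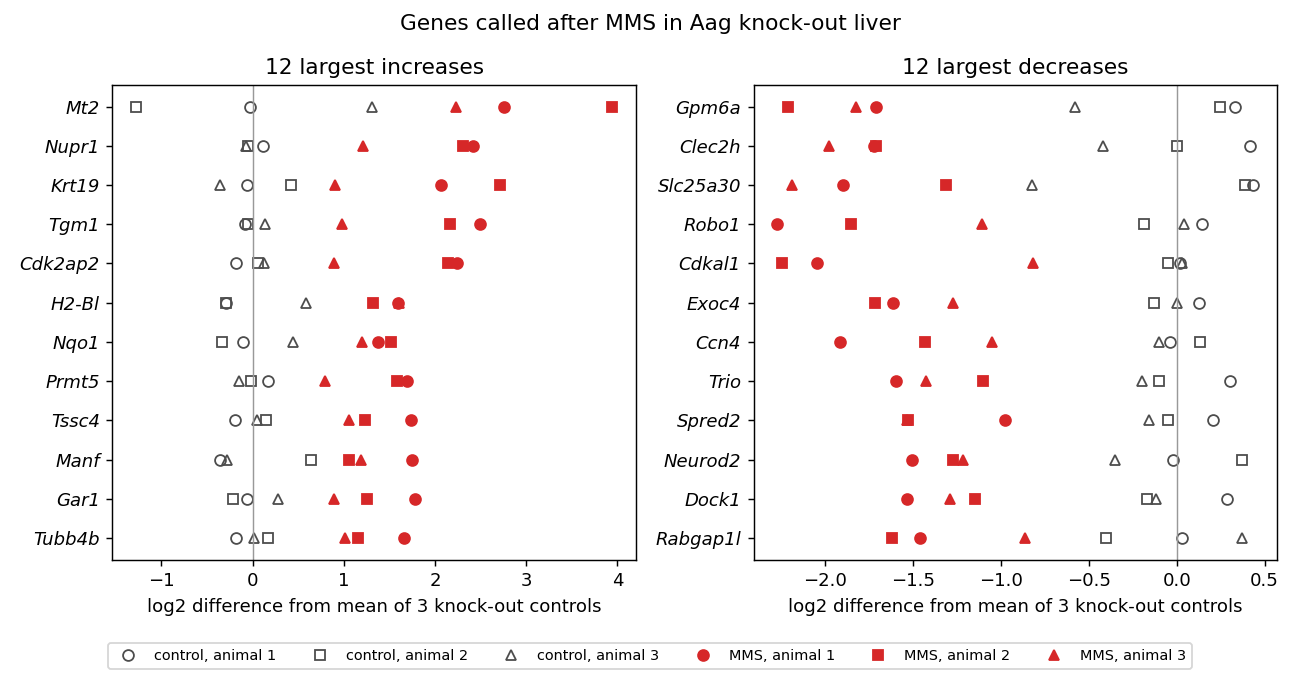
Log2 difference from the mean of the 3 knock-out controls (horizontal) for the 12 genes with the largest increase (left) and decrease (right) among genes past the threshold with separate groups; open grey symbols are controls, red symbols MMS, and shape gives the animal number. Choosing separate groups fixes the gap between the colours; in Nupr1, Krt19, Tgm1, Cdk2ap2, Robo1 and Cdkal1 treated array 3 (triangle) is the one nearest the controls, while in Slc25a30, Clec2h and H2-Bl it is as far from them as the other 2 or farther.

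Folding factors of the endoplasmic reticulum rose in part. Manf, a secreted factor of this compartment, read 10.72, 11.72 and 10.81 in control and 12.84, 12.15 and 12.28 in treated arrays. Control array 2 was the highest of the controls and lay 0.4 below the lowest treated array. Manf rose by 1.34 ± 0.27 (2.52-fold, limma adjusted p = 0.0466).

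Txndc11, a thioredoxin-domain protein that works beside the dismantling of misfolded glycoproteins, rose by 1.26 ± 0.25, and Dnajb11, a co-chaperone of BiP, by 0.73 ± 0.16. Txndc5, a disulfide isomerase, rose by 1.04 ± 0.22 at the probe set with the higher level, while the other probe set read -0.14. Pdrg1, a prefoldin-like subunit, is in this list although it is not a factor of the endoplasmic reticulum. It rose by 0.67 ± 0.11 and had 2 further probe sets past the threshold. Of the 28 measured genes in the list of chaperones and folding enzymes, 5 rose, Pdrg1 among them. The other 23 were not called and none fell, with 24 positive values and a median change of 0.33 over the 28 genes. Their median by array was 0.61, 0.28 and 0.31 in treated arrays 1, 2 and 3, and -0.03, 0.14 and -0.06 in the controls.

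Hspa5, which encodes BiP, the main chaperone of the compartment, stood at 0.54 ± 0.15 (adjusted p = 0.0788), and Creld2, a folding factor, at 1.48 ± 0.35 (adjusted p = 0.0587). Of 24 genes of endoplasmic reticulum degradation and 16 sensors and transcription factors of the unfolded protein response, 0 passed in limma, with medians of 0.15 and 0.12. Counted by unadjusted p under 0.05 (13.3% of all genes higher and 12.7% lower), 7 were higher and 2 lower among the degradation genes, and 4 higher among the sensors and factors. Atf6, a sensor that becomes a transcription factor when cut, stood at 0.87 (adjusted p = 0.0552).

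Antioxidant genes of the NRF2 group gave 3 calls. Nqo1, a quinone reductase, read 8.95, 8.72 and 9.50 in control and 10.43, 10.57 and 10.25 in treated arrays, so the treated arrays agreed within 0.4 and all lay above the controls. It rose by 1.36 ± 0.20 (2.57-fold, limma adjusted p = 0.0264). Srxn1, which repairs oxidised peroxiredoxins, rose by 1.18 ± 0.19, with 2 more of its 4 probe sets past the threshold at 1.31 and 1.06. Cbr3, a carbonyl reductase, rose by 0.81 ± 0.14. Of 34 measured NRF2 targets 3 rose, 31 were not called and none fell, with a median change of 0.16. At an unadjusted p under 0.05 there were 11 higher and 4 lower. Hmox1, the haem-degrading enzyme of the same group, stood at 0.70 ± 0.29 (adjusted p = 0.164), with treated array 2 at 10.11 and the other 2 treated arrays at 9.24 and 8.996 against controls of 8.44 to 8.95.

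Genes for making ribosomes were nearly all on the positive side. Gar1, a protein of the RNA-guided machinery that modifies ribosomal RNA, read 8.80, 8.65 and 9.14 in control and 10.64, 10.11 and 9.76 in treated arrays and rose by 1.31 ± 0.25. Ltv1, a factor of small subunit export, rose by 1.16 ± 0.23, Polr1c, a subunit shared by RNA polymerases I and III, by 0.57 ± 0.12, and Pes1, which acts in large subunit assembly, by 0.86 ± 0.19. A second probe set of Pes1 read -0.07. Of 60 measured genes 4 rose, 56 were not called and none fell. The list had 53 positive values, a median of 0.48, and separate groups with treated higher in 32 genes, where 13.9% of all genes had such groups. Its median by array was 0.68, 0.33 and 0.45 in the treated arrays and -0.14, -0.04 and 0.18 in the controls.

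Other genes of protein synthesis and turnover showed smaller values. Aimp2, a scaffold of the multi-enzyme synthetase complex, rose by 0.99 ± 0.19, as the only one of 19 aminoacyl-tRNA synthetase genes past the threshold, in a list with 17 positive values and a median of 0.39. Among 36 proteasome subunits 0 passed in limma, 17 were higher and 1 lower at an unadjusted p under 0.05, and the median was 0.27. Groups were separate with treated higher in 21 of the 36, where 13.9% of all genes had such groups. By array the proteasome median was 0.37, 0.30 and 0.16 in treated arrays 1, 2 and 3, against -0.03 to 0.02 in the controls. Psmd4 and Psmd7, subunits of the regulatory cap, stood at 0.91 and 1.08 (adjusted p = 0.0566 and 0.0681). Each has 2 other probe sets, of which 1 for Psmd4 and 0 for Psmd7 had the same sign.

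**Figure D3:**
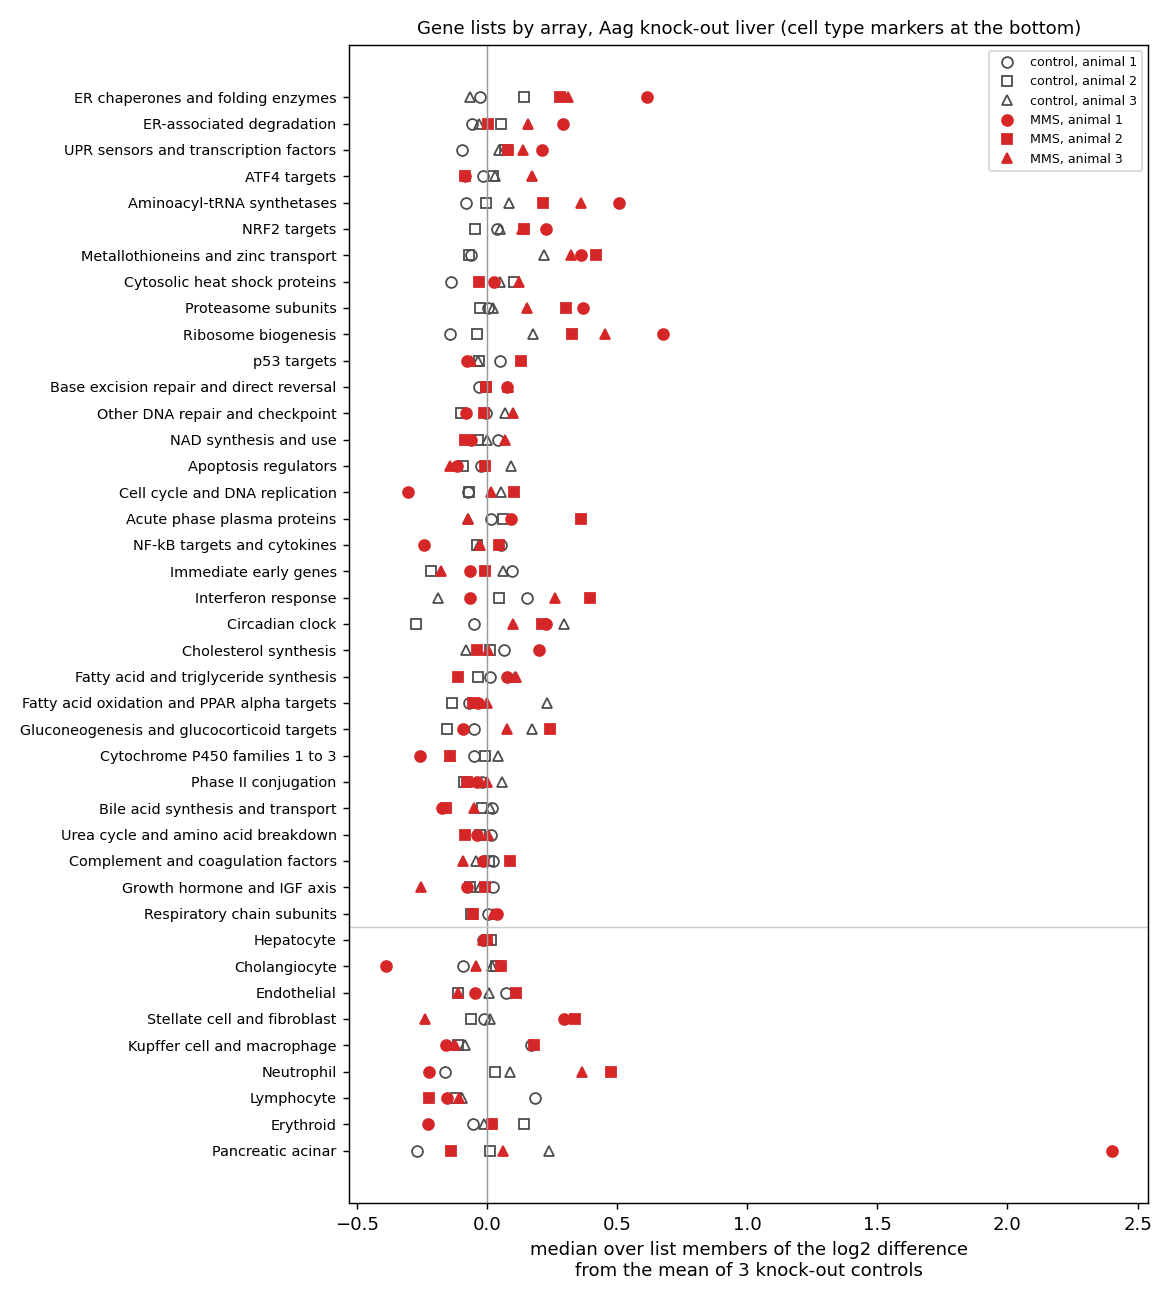
Median over the members of each of 41 gene lists of the log2 difference from the mean of the 3 knock-out controls (horizontal), 1 symbol per array; open grey symbols are controls, red symbols MMS, shape gives the animal number, and the 9 cell type lists stand below the grey line. Ribosome biogenesis (0.33 to 0.68), ER chaperones (0.28 to 0.61) and proteasome subunits (0.16 to 0.37) have all treated arrays above all controls, and the pancreatic acinar list is high only in treated array 1 (2.40).

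DNA damage genes gave few calls. Mdm2, the ubiquitin ligase that p53 switches on and that limits it, read 10.43, 10.28 and 10.44 in control and 11.48, 11.34 and 10.95 in treated arrays. All treated arrays lay above the narrow range of the controls, and Mdm2 rose by 0.87 ± 0.18 (1.83-fold, limma adjusted p = 0.0453). Aen, a nuclease induced by p53, rose by 0.93 ± 0.17 from 10.07 to 10.14 in the controls. Of 31 measured p53 targets these 2 rose, 29 were not called and none fell, with a median change of -0.02. Cdkn1a, the cell cycle inhibitor p21, read 8.03, 8.68 and 6.52 in control and 7.07, 7.30 and 7.39 in treated arrays. Its controls spanned more than the whole treated group, and the difference of -0.49 ± 0.51 did not pass (adjusted p = 0.577).

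Xpa, the damage-verifying protein of nucleotide excision repair, rose by 1.21 ± 0.25 at its brightest probe set, while its other 2 probe sets read -0.18 and -0.02. It was the only one of 39 other repair and checkpoint genes called. H2ax, the histone variant marked at DNA breaks, stood at 1.37 ± 0.31 (adjusted p = 0.0551). The list of base excision and direct reversal repair had 22 measured genes, of which 0 passed in limma (3 higher and 2 lower at an unadjusted p under 0.05), with a median of 0.06. Ung, the uracil glycosylase, stood at 0.95 and Apex1, the nuclease that cuts abasic sites, at -0.52 (adjusted p = 0.0842 and 0.11). Of the 2 other probe sets of Apex1, 1 had the same sign.

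Bak1, a pore-forming protein of mitochondrial cell death, rose by 0.92 ± 0.17 and was the only one of 26 apoptosis regulators called. At an unadjusted p under 0.05 that list had 3 higher and 8 lower members. Of its values 16 were negative, with a median of -0.10. In the list of 46 cell cycle and DNA replication genes 0 passed in limma, with 4 higher and 2 lower at an unadjusted p under 0.05 and a median of -0.08. Gmnn, the inhibitor of replication licensing, stood at 1.25 (adjusted p = 0.0653).

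In the interferon list 2 of 34 rose, 32 were not called and none fell, with a median of 0.22. At an unadjusted p under 0.05 there were 13 higher and 3 lower. Oasl1, an antiviral protein of the oligoadenylate synthetase family, read 8.23, 8.10 and 7.85 in control and 8.83, 9.01 and 9.08 in treated arrays and rose by 0.91 ± 0.15. Here treated array 3 was the highest of the treated arrays. Parp14, an ADP-ribosyltransferase, rose by 0.62 ± 0.13. The class I histocompatibility gene H2-Bl rose by 1.50 ± 0.21, from 6.20, 6.20 and 7.07 to 8.08, 7.81 and 8.09. H2-Bl belongs to a family of near-identical class I genes, so its probe set may read other members. The list median by array was -0.07, 0.39 and 0.26 in treated arrays, and treated array 1 lay within the controls at -0.19 to 0.15.

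Inflammatory lists had no member past the threshold in limma. Of 31 acute phase genes 3 were higher and 1 lower at an unadjusted p under 0.05, with a median of 0.14, and of 29 NF-kB targets and cytokines 2 were higher and 1 lower, with a median of -0.02. By array the acute phase median was 0.09, 0.36 and -0.07 in treated arrays 1, 2 and 3, with treated array 2 highest, array 1 just above the controls (-0.07 to 0.06) and array 3 at their lower end. Lcn2, a neutrophil-associated secreted protein, was likewise high in that array, at 10.93 against 9.23 and 9.33 in the other 2 and 9.05 to 9.74 in the controls. The neutrophil marker list gave -0.22, 0.48 and 0.36 in the treated arrays and -0.16 to 0.09 in the controls, with 0 of 14 called, 4 higher at an unadjusted p under 0.05, and a mean level of its members of 5.72 to 6.70. S100a9, an abundant neutrophil protein, stood at 1.96 (adjusted p = 0.0831). The part of the neutrophil signal in the acute phase values was not tested.

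Among 30 immediate early genes 0 passed, with 1 higher and 4 lower at an unadjusted p under 0.05. Egr1, a transcription factor induced within minutes by growth signals and handling, read 13.09, 12.14 and 11.35 in control and 8.70, 10.81 and 9.11 in treated arrays. The groups did not overlap, but each spread over more than 1.5 log2 units, and the difference of -2.65 ± 0.65 missed the threshold (adjusted p = 0.06).

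Metabolic lists gave few calls. Nags, which makes the activator of the first enzyme of the urea cycle, rose by 1.05 ± 0.20, the only one of 31 genes of the urea cycle and amino acid breakdown called. Slc37a4, the glucose-6-phosphate transporter that releases glucose with G6pc, rose by 0.89 ± 0.18, from 11.83, 11.76 and 12.39 to 13.04, 12.81 and 12.79. With Mt2, which is also a glucocorticoid target, it made 2 of 27 in the gluconeogenesis and glucocorticoid list. In cholesterol synthesis 0 of 19 genes passed (3 higher at an unadjusted p under 0.05), with a median of 0.01.

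Of 33 measured cytochrome P450 genes of families 1 to 3, the enzymes that oxidise drugs and other foreign compounds, 25 had negative values and the median was -0.17. None passed in limma, with 5 lower and 0 higher at an unadjusted p under 0.05, where 12.7% of all genes were lower and 13.3% higher. The 5 of 33 is near that background. The treated arrays lay wholly below the controls in 15 of the 33, where 14.6% of all genes had such groups. The list's median by array was -0.26, -0.14 and -0.14 in treated arrays and -0.05 to 0.04 in controls. Cyp2c29 and Cyp2c50 stood at -0.39 and -0.38 (adjusted p = 0.0805 and 0.0838).

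The remaining lists of metabolism and secretion had 0 members past the threshold and medians between -0.13 and 0.08. They were fatty acid and triglyceride synthesis, fatty acid oxidation, phase II conjugation, bile acids, complement and coagulation, the growth hormone axis and respiratory chain subunits. At an unadjusted p under 0.05 they held 1 to 4 higher and 1 to 6 lower members each. In the clock list 0 of 20 passed, with 2 higher and 2 lower at that p. Npas2, a partner in the activating clock complex, read 8.89, 9.20 and 5.89 in control and 5.71, 6.07 and 6.18 in treated arrays, with control array 3 among the treated values. Dbp, a clock output factor, had the mirror pattern, at 11.31, 10.64 and 13.04 against 12.49, 12.16 and 12.83.

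Taking all 41 lists, 1042 genes were measured, of which 29 rose and 1 fell (2.88%, where 1.7% of all genes were called). The lists were chosen with earlier results of these data known, and all genes are not matched to their level. The share and its direction are therefore a description only. A member rose in 15 lists and fell in 1, and 25 lists had none. The gene that fell was Oit3, a protein of liver sinusoidal endothelium, at 10.32, 10.23 and 10.43 in control and 9.62, 9.71 and 9.33 in treated arrays (-0.78 ± 0.14). The other 21 endothelial markers were not called and the list's median was -0.05.

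The stellate cell list, markers of the matrix-producing cells of liver, had 0 of 19 called, with 4 higher and 5 lower at an unadjusted p under 0.05. Its median was 0.29 and 0.34 in treated arrays 1 and 2 and -0.24 in treated array 3, against -0.06 to 0.01 in controls, so the treated arrays lay on both sides. Over the group means 11 of the 19 values were positive and 8 negative, with a median change of 0.31. Col1a1 and Col6a3, collagen genes, stood at -1.26 and -0.97 (adjusted p = 0.0707 and 0.0501), while Pdgfra, a growth factor receptor of these cells, and Ecm1, an extracellular matrix protein, stood at 0.56 and 0.51 (adjusted p = 0.0765 and 0.0653). The other probe set of Pdgfra did not share its sign. Lymphocyte markers had 16 of 20 negative values, 0 called, 3 lower at that p and a median of -0.22, with treated arrays at -0.15, -0.22 and -0.11 and controls at -0.12 to 0.19. Macrophage markers (19, 1 higher and 3 lower at that p), erythroid markers (9, 1 higher and 2 lower) and hepatocyte markers (16, 1 higher) also had 0 called, with medians of 0.00, -0.11 and -0.01. In the list of NAD synthesis and use 1 of 17 was called, Parp14, and the median was -0.08.

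Several of the largest increases lay outside these programmes or stood alone in a marker list. Krt19, a keratin of bile duct cells, read 6.45, 6.94 and 6.15 in control and 8.58, 9.23 and 7.41 in treated arrays. All treated arrays were above the controls, array 3 by the least, and Krt19 rose by 1.90 ± 0.40 (3.72-fold, limma adjusted p = 0.0472). It was the only one of 10 measured cholangiocyte markers called. The list's median was -0.39, 0.06 and -0.04 in treated arrays and -0.09 to 0.03 in controls, and Sox9 and Epcam, other markers of these cells, stood at -0.72 and 0.64 (adjusted p = 0.145 and 0.314).

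Tgm1, a transglutaminase that crosslinks proteins, read 5.81, 5.85 and 6.03 in control and 8.39, 8.06 and 6.88 in treated arrays and rose by 1.88 ± 0.38. Cdk2ap2, a small protein named for its likeness to a CDK2-binding protein, rose by 1.76 ± 0.35, from 9.19 to 9.49 in controls to 11.61, 11.51 and 10.26. In both, treated arrays 1 and 2 stood well above treated array 3. Prmt5, an arginine methyltransferase of histones and splicing proteins, rose by 1.36 ± 0.26 and Tssc4 by 1.34 ± 0.18. Tubb4b, a beta tubulin, rose by 1.28 ± 0.20 at its brightest probe set. Its other 5 probe sets lay at levels of 2.89 to 4.81 and none was called. Dnajb2, a cytosolic co-chaperone, rose by 1.08 ± 0.23 as the only one of 25 cytosolic heat shock genes called. That list had 8 higher and 0 lower at an unadjusted p under 0.05, with a median of 0.03.

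Reg1, a secretory protein of the exocrine pancreas, had the largest difference of any gene without passing: it read 4.27, 5.19 and 6.00 in control and 9.85, 10.97 and 7.10 in treated arrays (4.15 ± 0.99, adjusted p = 0.0581). Of 16 pancreatic acinar markers 0 were called and 2 were higher at an unadjusted p under 0.05. Ctrb1 and Clps, digestive enzyme genes of acinar cells, were at 11.06 and 9.60 in treated array 1, against 6.55 and 6.34 in treated array 2, so the high Reg1 of array 2 was not matched by them.

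The decreases were led by Gpm6a, a neuronal-type membrane glycoprotein also found in liver, which read 7.37, 7.28 and 6.46 in control and 5.33, 4.83 and 5.21 in treated arrays. It fell by 1.91 ± 0.33 (3.77-fold, limma adjusted p = 0.0333). Clec2h, a C-type lectin, fell by 1.80 ± 0.32, from 11.87, 11.46 and 11.03 to 9.73, 9.74 and 9.48. The 3 treated arrays of Clec2h agreed within 0.3. Slc25a30, a mitochondrial carrier, fell by 1.80 ± 0.38, with control array 3 at 7.30 between the other controls (8.56 and 8.51) and the treated arrays (5.94 to 6.81).

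Robo1, a guidance receptor, read 10.13, 9.80 and 10.03 in control and 7.72, 8.13 and 8.88 in treated arrays and fell by 1.74 ± 0.28. Cdkal1, a methylthiotransferase that modifies a transfer RNA, read 11.77, 11.70 and 11.77 against 9.70, 9.50 and 10.93 and fell by 1.70 ± 0.29. In these genes treated array 3 lay between the controls and treated arrays 1 and 2. Exoc4, a subunit of the exocyst that tethers secretory vesicles, read 11.09, 10.84 and 10.97 against 9.35, 9.25 and 9.69 and fell by 1.53 ± 0.17 (limma adjusted p = 0.018). Another of its probe sets had the smallest adjusted p of the comparison, 0.0120, at -1.62 ± 0.16.

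Ccn4, a secreted matricellular protein, fell by 1.47 ± 0.20, Spred2, an inhibitor of RAS signalling, by 1.35 ± 0.24, and Neurod2, a neuronal transcription factor at a low level in these arrays (5.21 to 5.93 in controls), by 1.33 ± 0.28. Trio, a large guanine nucleotide exchange factor, fell by 1.38 ± 0.16 at the brighter of its 2 probe sets, and the other read 0.11. Dock1, an activator of Rac, fell by 1.32 ± 0.17, from 10.07, 9.61 and 9.67 to 8.25, 8.64 and 8.50. Rabgap1l, a regulator of Rab GTPases, fell by 1.31 ± 0.23. None of these 12 genes belonged to any of the 41 lists.

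Many of the genes that fell were long. Gene length here is the distance from start to end of the gene in RefSeq (GRCm38.p6), introns included, the stretch that a polymerase transcribes. The median length was 151 kb for the 101 genes called lower and 12.1 kb for the 110 called higher, against 20.1 kb for 12367 genes with a length. Genes over 100 kb made up 59 of the 101 genes called lower (58.4%), 1 of the 110 called higher (0.909%) and 1420 of all (11.5%). Among those named above, Robo1 spans 1020 kb, Exoc4 725 kb, Cdkal1 664 kb, Rabgap1l 574 kb, Dock1 503 kb, Trio 295 kb and Gpm6a 281 kb. Ppfibp2, a liprin of 154 kb, was the single risen gene over 100 kb (1.12 ± 0.22) and was picked out after its values were seen.

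The shift was graded over length classes. The median change was -0.02 in 3677 genes under 10 kb, -0.00 in 4076 genes of 10 to 30 kb, -0.09 in 3194 genes of 30 to 100 kb, -0.23 in 1117 genes of 100 to 300 kb and -0.43 in 303 genes over 300 kb. In the last class 261 of 303 genes had negative values, and 27 were called lower (8.91%) against 0.272% of genes under 10 kb. Across genes the rank correlation of change with length was -0.16, a description over genes that share the same 6 arrays. The wild-type response, from other arrays, had -0.15 and a median of -0.32 over 300 kb.

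By array, the genes over 300 kb had medians of -0.10, -0.05 and 0.15 in the controls and -0.65, -0.39 and -0.18 in the treated arrays. The groups did not overlap, and treated array 3 was nearest to the controls. The class median was -0.26 with the 5' minus 3' difference as a covariate, and -0.18 without treated arrays 1 and 2. Without treated array 1 it was -0.25, and without control array 3 it was -0.27. The class over 300 kb was also the dimmest, with a median level of 6.10, against 7.48, 8.72, 8.73 and 8.00 in the other classes from shortest to longest. Over all genes, length and level had a rank correlation of 0.05, and change and level one of 0.25. Among genes with a mean level of at least 8 the class over 300 kb had a median of -0.57, with 23 of 86 called lower (26.7%). At that level the class under 10 kb had a median of 0.14.

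**Figure D4:**
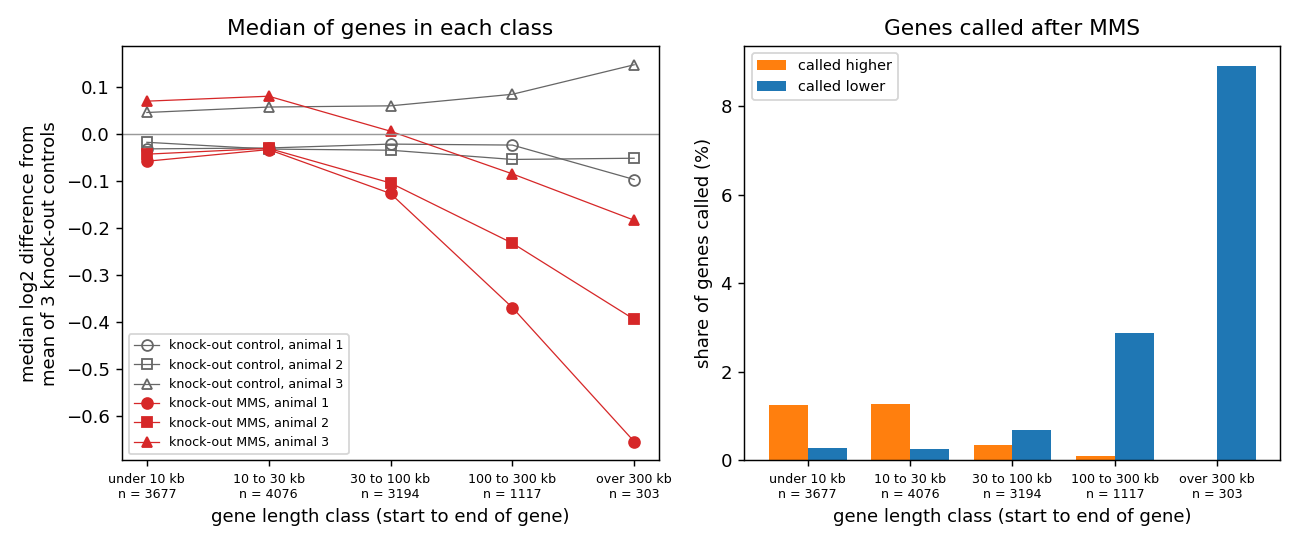
Left, median log2 difference from the mean of the 3 knock-out controls (vertical) for 5 classes of gene length (horizontal, n genes under each), 1 line per array; open grey symbols are controls and red symbols MMS. Right, share of genes in each class called higher or lower after MMS (%); in the longest class the treated arrays lie at -0.65, -0.39 and -0.18 and 8.91% of genes were called lower.

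The response was then set beside that of wild-type liver. The 2 responses have no array in common, but their calls share 1 estimate of the spread per probe set from all 12 arrays. A probe set with a small spread is thus more easily called in both, and the overlap of calls is not one of independent calls. Across 12393 genes the changes correlated at r = 0.32, a value that describes genes and not replicates. Of the 341 probe sets called in knock-out liver, 119 were also called in wild type (34.9% of knock-out calls and 8.16% of the 1458 wild-type calls, which were 6.44% of probe sets). Of these, 114 went the same way. Of the 172 lower calls 84 were also called in wild type, and of the 169 higher calls 35. The wild-type calls were themselves mostly decreases, 1007 lower (4.45% of probe sets) and 451 higher (1.99%), and the contrast between directions was not tested. The 110 genes called higher had a median change of 0.91 in knock-out and 0.32 in wild type, and the 101 called lower -0.86 and -0.58. Since the genes were chosen for their knock-out change, the smaller wild-type medians are a description.

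No probe set passed the test of the difference of the responses in limma (smallest adjusted p = 0.0649). The unadjusted p was under 0.05 for 4009 (17.7%), and 28 passed with a trended robust variance. The count was 104 without treated knock-out array 3, 158 without control knock-out array 3, 2 without treated wild-type array 3 and 1 without treated knock-out array 2. Among the genes with the smallest p, Irs1, the insulin receptor substrate, read 10.70 to 10.86 in control and 10.73 to 10.80 in treated knock-out arrays. Its change was -0.05 ± 0.13 in knock-out and -1.51 in wild type, a difference of 1.46 ± 0.18. Scd2, a fatty acid desaturase, had -0.02 and -1.42 (difference 1.40 ± 0.19). Ang2, an angiogenin-family ribonuclease gene, read 5.51, 5.38 and 4.91 in control and 4.50, 4.40 and 4.53 in treated knock-out arrays. These levels are low, and the probe set may not be above background there. Ang2 had -0.79 and 1.09 (difference -1.88 ± 0.27). Nr1d1, a clock repressor, read 10.15, 9.72 and 10.34 in control and 10.48, 10.45 and 9.84 in treated knock-out arrays, which overlap. It had 0.19 and 3.19 (difference -3.01 ± 0.46). The clock score of wild-type liver was -2.92, -2.71 and -2.39 in controls and 1.19, 1.31 and 1.42 in treated arrays, and its part in this difference was not tested.

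Probe sets called in both genotypes in opposite directions numbered 5, named after their values were seen. Oasl1 stood at 0.91 in knock-out and -0.64 in wild type, and Wbscr25 at 1.05 and -0.88. Papln, an extracellular matrix protein, stood at -0.80 and 0.68, Prss21, a serine protease, at -1.14 and 0.82, and Nes, an intermediate filament protein, at -0.59 and 0.48. The treated levels of Prss21 and Nes were 3.78 to 4.19 in knock-out arrays, near the bottom of the scale, where a probe set may not be above background.

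**Figure D5:**
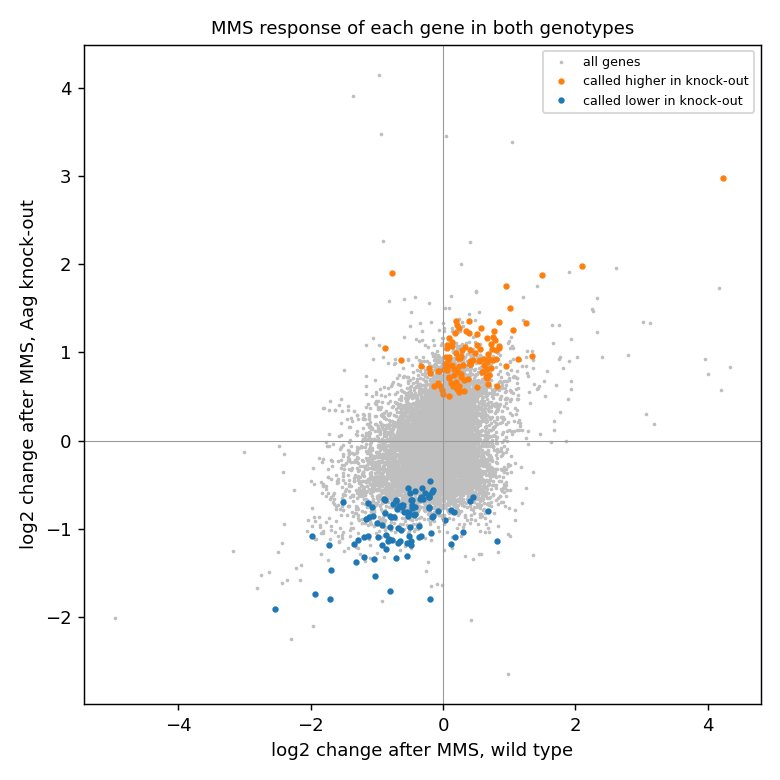
Log2 change after MMS in knock-out liver (vertical) against wild-type liver (horizontal) for 12393 genes, 1 point per gene; grey points are all genes, orange points the 110 called higher and blue points the 101 called lower in knock-out. Mt2 is the orange point at the upper right (2.97 and 4.23), and Krt19 the orange point at the upper left (1.90 and -0.78).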

How the data were processed

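Liver RNA of 12 animals was hybridised to 1-colour Affymetrix arrays, 1 per animal. The deposited log2 values, 1 per probe set, were made by the authors with RMA, per the submitters' processing notes. The sources used here give neither its version nor which arrays were normalized together. RMA brings arrays to 1 scale and hides any shift common to most genes. No detection call came with the values. The table held 22690 probe sets, of which 64 controls were set aside, and 0 extra sample columns. Array medians of the knock-out arrays were 7.48 to 7.71, and their pairs correlated at 0.965 to 0.992. The number of arrays limits the precision.

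Groups came from the labels. Of the 22626 probe sets tested, 20380 had 1 gene symbol in the platform annotation, 691 several and 1555 none. Probe sets with several were left unnamed, and 20351 symbols were updated through RefSeq (GRCm38.p6). For a gene with several probe sets, the brightest on average over all 12 arrays stood for it. limma 3.58.1 in R 4.3.3 was fitted with 1 mean per group (8 residual degrees of freedom) and Benjamini-Hochberg adjustment over all probe sets at 0.05. "Called", "rose" and "fell" mean past this threshold, and gene lists are described by counts and medians. Named genes were Mpg and the 12 largest changes in each direction with separate groups. List members past the threshold and up to 4 members per list by p were added. So were the 3 smallest p in each direction for the difference of responses. Mt1, Hspa5, Creld2, Hmox1, Cdkn1a, Lcn2 and Dbp lie outside this rule and were picked with the data known. The same holds for Ppfibp2, Wbscr25, Prss21 and Nes. The members and the 41 lists were chosen with earlier results of these data known.

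Replicates are separate animals by their titles. Deviations of equally numbered treated and control knock-out arrays correlated at 0.40, 0.01 and 0.28, so the numbers were not taken as pairs. On simulated data with 50 probe sets per size among 22626, the fit for the knock-out response recovered 44 lowered by 2, 26 lowered by 1, 24 raised by 1 and 42 raised by 2 on the log2 scale, with 5 false calls of 141. The simulated noise was independent for each probe set and held no shift shared by the probe sets of an array. These counts therefore check the code and do not give the power or the false calls in the real arrays. Alternatives were low-value filters, quantile normalization, median centring, variance models, array weights, a replicate block, the 5' minus 3' covariate and leaving out arrays. Leaving out wild-type arrays or treated arrays 1 and 2, and the settings of the length classes, were added after seeing the data.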

Additional observations from a re-analysis of the deposited data

How the results depend on the processing

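The count of knock-out calls (341, with 169 higher and 172 lower) was 533 after a further quantile normalization (255 and 278), 1132 among probe sets with a mean of at least 6 (685 and 447) and 1672 among those at or above the median (1072 and 600). It was 1029 with a trended robust variance (598 and 431), 5790 with array weights (3168 and 2622), 3326 without both knock-out arrays numbered 3 (1984 and 1342) and 121 at 2-fold or more (58 and 63). With the replicate block it was 19 (5 and 14), of which 17 were among the 341. It was 0 in both directions from the 6 knock-out arrays alone (4635 at an unadjusted p under 0.05), with the 5' to 3' covariate (2243) and without treated knock-out arrays 1 and 2 (1858). Leaving out 1 array gave 0 to 3264 calls (0 to 1823 higher, 0 to 1441 lower). Median centring gave 385. Fitted with 1 probe set per gene it was 430 of 12393, where 211 of the same probe sets passed in the fit to all. The share called higher was 49.6% as deposited and 64.1% among probe sets at or above the median. The difference of responses (0 calls, 4009 at an unadjusted p under 0.05) gave 34 and 43 calls with the filters at 6 and at the median, 28 with the trended robust variance, 2344 with array weights, 514 without both arrays numbered 3, 20 with 1 probe set per gene, and 0 to 158 when 1 array was left out. The causes were not tested, except that filters and 1 probe set per gene test fewer probe sets. The median of genes over 300 kb ran from -0.18 to -0.57 over all settings. No called value changed sign.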
